A study of Mus musculus with 2 samples.

Results

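Retnlg-low neutrophils are described here in tumours of ovariectomised C57BL6\J mice, as measured by 3′ droplet single-cell RNA sequencing. A barcode was taken when at least 200 genes were detected and its raw counts of unique molecular identifiers (UMIs, molecules counted after collapsing copies) met 5 conditions. S100a8 plus S100a9 had at least 20 UMIs, Csf3r plus Cxcr2 plus Il1r2 at least 2, C1qa plus C1qb at most 3, Cd3e plus Cd3d plus Cd3g at most 1, and Retnlg was under 0.2% of the UMIs of the barcode. This chose 424 of 9255 barcodes. The other 302 barcodes that met every condition but the last are called Retnlg-high neutrophils, so 726 neutrophils were selected in all.

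Live CD45+ cells had been sorted by flow cytometry from dissociated tumours, and 1 library was made per group. In the placebo group the mice were ovariectomised and given placebo, and in the E2 group they were ovariectomised and given E2, the usual abbreviation of estradiol. Ovariectomy, which removes the main source of estrogen, was therefore shared by both groups. The sources used here do not name the tumour type, the E2 dose or duration, the age of the mice, or how many mice were pooled. With 1 library per group no test was run. Every interval below is an exact 95% interval that covers counting error only, and every difference is a difference between these 2 libraries with no replicate check.

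Neutrophils are short-lived phagocytes that leave the bone marrow with preformed granule proteins, enter inflamed tissue through CXCR2 and respond there by releasing cytokines, chemokines and lipid mediators. Retnlg encodes a resistin-like secreted protein that is abundant in marrow and blood neutrophils of the mouse, together with the calcium-binding alarmins S100A8 and S100A9. In mouse tumours, neutrophils with little Retnlg are commonly described beside Retnlg-rich ones, and the former are known for transcripts of tissue activation.

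The markers given for these cells were present. Summed over the members of a library and scaled to CPM, the UMIs of a gene per 1000000 UMIs of the group, S100a9 stood at 34128 CPM in placebo members and 43720 CPM in E2 members. Csf3r, the receptor for the main neutrophil growth factor, stood at 1581 and 1289 CPM, Il1r2, a decoy receptor for interleukin 1, at 1734 and 1558 CPM, and the chemokine receptor Cxcr2 at 946 and 928 CPM. These genes chose the members and say nothing further about them. Ptgs2, which encodes the inducible cyclooxygenase of prostaglandin synthesis and was not part of the selection, stood at 2610 and 2667 CPM. In macrophages and monocytes it stood at 182 and 138 CPM, and in T cells at 12.8 and 17.0 CPM. The marker that had not been used to choose the cells thus set the members apart from both other cell types. All 14 genes of the neutrophil marker list had UMIs in the members of each library. Of the primary granule genes of immature neutrophils, Elane, Mpo and Ctsg had 0 UMIs in the members of both libraries. This allows up to 5.65 CPM for placebo and 3.33 CPM for E2, the level of 3 counts. Prtn3 and Ms4a3 had UMIs, and the primary granule list summed to 66.0 CPM in placebo members and 16.7 CPM in E2 members. Prtn3, the only gene of that list with at least 30 UMIs over both libraries, was at least 2-fold lower in E2 members.

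The placebo members held 530647 UMIs and the E2 members 900399 UMIs, with medians of 2380 and 2806 UMIs and 823 and 1066 genes per cell. A few barcodes were far deeper than the rest: 5 placebo members and 12 E2 members had over 10000 UMIs and together held 23.1% and 19.6% of the UMIs of their groups. Markers of some other cell types lay in part in these barcodes. The 8 markers of conventional dendritic cells summed to 305 CPM in placebo members and 35.5 CPM in E2 members, and to 7.35 and 6.91 CPM without the barcodes over 10000 UMIs. The 12 markers of monocytes and macrophages summed to 735 and 2088 CPM, to 497 and 1014 CPM without those barcodes, and to 10057 and 14662 CPM in macrophages and monocytes. The 5 B cell markers summed to 204 CPM in placebo members, to 75.9 CPM without those barcodes, and were all at 0 in E2 members. Other markers did not lie there: those of eosinophils summed to 41.7 and 59.4 CPM without those barcodes, against 32.0 and 49.98 CPM with them, and those of mast cells and basophils to 19.6 and 31.8 CPM, against 15.1 and 28.9 CPM. Of the 12 monocyte and macrophage markers, 1 was at 0 in placebo members and 0 were in E2 members, and 1 of the 8 dendritic cell markers was at 0 in each. The primary granule list summed to 2.45 CPM in placebo members and 4.14 CPM in E2 members without the barcodes over 10000 UMIs. Results that rest on these barcodes are given with and without them. A total of 95 barcode sequences occurred in both libraries, and none of them was a member.

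Because Retnlg, S100a8 and S100a9 chose the cells, their values are given as a description. No Retnlg UMI was found in 92 placebo members (54.8%) and 145 E2 members (56.6%). Retnlg summed to 334 and 372 CPM in the members, to 8197 and 13782 CPM in Retnlg-high neutrophils, and to 0.462 and 1.47 CPM in T cells. S100a8 and S100a9 together made up a median of 6.24% of the UMIs of a placebo member and 6.85% of an E2 member, against 15.2% and 19.0% in Retnlg-high neutrophils. The limit at 0.2% did not fall in a gap. Just inside it, at 0.15% to under 0.2% Retnlg, lay 9 placebo and 13 E2 cells with median S100a8 and S100a9 shares of 9.82% and 17.9%. Just outside it, at 0.2% to under 0.3%, lay 16 placebo and 27 E2 cells with medians of 13.7% and 12.9%.

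**Figure D1:**
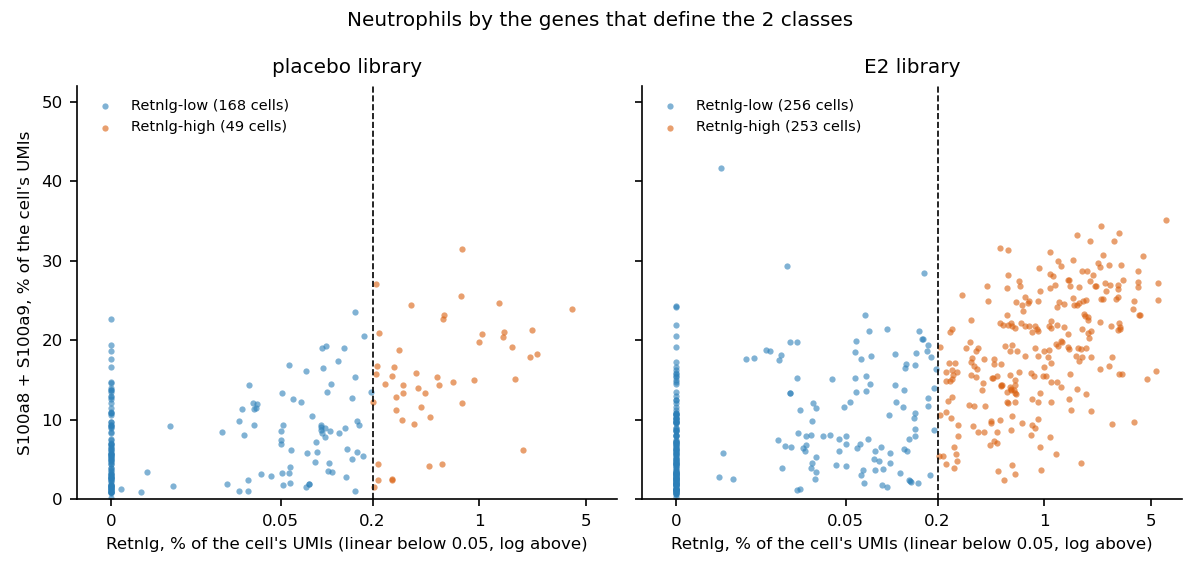
Each point is 1 neutrophil, placed by the Retnlg share of its UMIs (horizontal axis, linear below 0.05% and logarithmic above) and by its S100a8 plus S100a9 share (vertical axis, %), for the placebo library (left) and the E2 library (right). Blue points are the 168 placebo and 256 E2 Retnlg-low cells, orange points the 49 and 253 Retnlg-high cells, and the points run across the dashed line at 0.2% without a gap.

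Retnlg-low neutrophils took a similar share of both libraries, while Retnlg-high neutrophils did not. The members were 168 of 3490 placebo barcodes, or 4.81% (4.13 to 5.58%), and 256 of 5765 E2 barcodes, or 4.44% (3.92 to 5.004%), and these intervals overlap. Retnlg-high neutrophils were 1.40% (1.04 to 1.85%) and 4.39% (3.87 to 4.95%), 3.13-fold higher in the E2 library. Among selected neutrophils the Retnlg-low share was therefore 77.4% (71.3 to 82.8%) for placebo and 50.3% (45.9 to 54.7%) for E2. These are shares of sorted cells, so they depend on the sort and on how many other immune cells were captured. The E2 members were also the deeper ones. Barcodes with at least 1000 UMIs were thinned to 1000 UMIs, and the rule was applied with a lower minimum for Csf3r plus Cxcr2 plus Il1r2. The Retnlg-low share of neutrophils was then 70.7% and 45.5%.

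The 15 genes of highest CPM in the members held inflammatory genes beside genes that nearly every cell makes. A 3′ UMI counts 1 molecule whatever the length of the transcript, so levels were compared between genes as CPM. After S100a9 and S100a8 came Cxcl2, a chemokine that draws further neutrophils through CXCR2, at 28495 CPM in placebo members and 26795 CPM in E2 members. Il1b, the precursor of interleukin 1 beta, stood at 16546 and 22335 CPM. The ferritin heavy and light chains that store iron, Fth1 and Ftl1, stood at 20594 and 20096 CPM and at 6234 and 5169 CPM. Srgn, the proteoglycan core protein of granules, the transcription factors Junb and Cebpb, the phosphatase gene Dusp1 and Cd14, a co-receptor for bacterial lipopolysaccharide, were also among the 15. The rest were Tmsb4x, which encodes an actin-binding peptide, the nuclear RNA Malat1 and the actin genes Actb and Actg1. Thinned to 1000 UMIs, 92.0% of placebo members and 90.5% of E2 members had a Cxcl2 UMI and 96.9% and 99.2% an Il1b UMI. In T cells, taken as the background and with median depths of 4808.5 and 4628.5 UMIs before thinning, the shares were 3.67% and 5.09% for Cxcl2 and 2.75% and 4.33% for Il1b. Thinned placebo and E2 members carried medians of 476 and 517 genes, against 432 and 421 genes in Retnlg-high neutrophils and 646 and 627 genes in T cells. The thinning left out 5 placebo and 3 E2 members as too shallow.

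The E2 and placebo libraries were next compared within the members. Of 4565 genes with at least 30 UMIs, 97 were at least 2-fold higher in the E2 library (2.12%) and 138 at least 2-fold lower (3.02%), with 10 CPM added to both levels before the log2 ratio was taken, so that ratios of lowly expressed genes are understated. The median over all 4565 genes was 0.02. Calls were repeated in 4 ways: without barcodes over 10000 UMIs, without barcodes over 5000 UMIs, without members that carried markers of other cell types, and with the mean of the CPM of single cells in place of summed UMIs. In all 4 checks 64 of the higher and 96 of the lower genes held. Holding did not require the RNA to be spread over many cells. Igkc, an immunoglobulin gene, was among the 96 lower genes. Over all 4565 genes, 52.1% had a log2 value above 0 and 47.9% below. The balance of the calls depends on the scaling, with 97 higher and 138 lower genes from summed UMIs and 293 higher and 172 lower genes from the mean of the cells' CPM.

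Members of the E2 library held less RNA of the inflammatory chemokines Ccl4 and Ccl3, which attract monocytes, natural killer cells and T cells. Ccl4 (chr11:83662584-83664683, GRCm38) stood at 7252 CPM (7024 to 7484) in placebo members and 1618 CPM (1536 to 1703) in E2 members, 4.48-fold lower (4.22 to 4.76). Ccl3, its neighbour (chr11:83647844-83649355), stood at 4412 and 1721 CPM, 2.56-fold lower (2.40 to 2.73). The Ccl4 difference was also seen in the share of cells. In the other neutrophils both genes were lower in the E2 library, Ccl3 by less than 2-fold. At 1000 UMIs, 41.7% of placebo members and 20.2% of E2 members had a Ccl4 UMI, against 3.12% and 3.90% of T cells. In Retnlg-high neutrophils Ccl4 stood at 6281 and 1510 CPM and Ccl3 at 2328 and 1276 CPM. The RNA was unevenly spread, and the 10% of members with most Ccl4 held 66.0% of its placebo UMIs and 84.3% of its E2 UMIs.

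The other chemokines lay on both sides. Of 7 CC chemokines measured, 4 had a log2 value below 0 and 3 above. Of these 7, 3 were at least 2-fold lower and 2 at least 2-fold higher, and only Ccl3 and Ccl4, both lower, held in all 4 checks. Ccl6, made by myeloid cells, stood at 701 and 501 CPM. Cxcl2 differed little, 1.06-fold lower (1.04 to 1.08) in E2 members. Cxcl3, a near relative of Cxcl2, lay the other way at 671 CPM in placebo members and 1475 CPM in E2 members, 2.20-fold higher (1.95 to 2.48), with a log2 value of 1.004 without the barcodes over 10000 UMIs, and did not hold in all 4 checks. At 1000 UMIs it was found in 18.4% and 15.02% of members, against 0.276% and 0.325% of T cells, so its carriers were no more frequent in the E2 library. Cxcl10, an interferon-induced chemokine for T cells, stood at 155 CPM and at 3.33 CPM, the latter from 3 UMIs, a ratio of 46.4 (15.3 to 229), and this held in all 4 checks. Its RNA lay in 2.98% of placebo members, with 46.3% of the UMIs in 1 cell, and at 1000 UMIs the shares of 2.45% and 0% lay below those of T cells, 5.33% and 4.11%.

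The interleukin 1 family was mostly lower in E2 members, its main cytokine excepted. Of 9 measured genes of the list, 8 had a log2 value below 0, 4 were at least 2-fold lower and none 2-fold higher, and the list's median was -0.83 beside 0.02 for all genes. Il1rn (chr2:24336853-24351494), the antagonist that blocks the interleukin 1 receptor, stood at 2953 CPM (2809 to 3103) in placebo members and 881 CPM (820 to 944) in E2 members, 3.35-fold lower (3.08 to 3.66). An Il1rn UMI was found in 67.5% and 34.0% of members at 1000 UMIs, against 0.459% and 0.325% of T cells. Il1a, the membrane-associated alarm cytokine, stood at 513 and 159 CPM, 3.23-fold lower (2.63 to 3.98). Il1f9, which encodes interleukin 36 gamma, stood at 933 and 394 CPM, 2.37-fold lower (2.06 to 2.72). Il1rap, the shared accessory chain of these receptors, stood at 354 and 165 CPM, 2.14-fold lower (1.72 to 2.67). These 4 genes are the ones that held in all 4 checks. Il1b stood apart at 1.35-fold higher (1.32 to 1.38). Nlrp3, the inflammasome sensor that leads to its processing, stood at 1574 and 1149 CPM. In Retnlg-high neutrophils the list's median was -0.60.

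Genes induced by the transcription factor NF-kappaB, which drives inflammatory transcription and its own feedback inhibitors, were lower on balance but by less. Of 19 measured genes 18 had a log2 value below 0, 2 were at least 2-fold lower and none was 2-fold higher, and the median was -0.60, or -0.72 without the barcodes over 10000 UMIs. Tnip1, which restrains NF-kappaB signalling, stood at 130 CPM (101.2 to 165) and 32.2 CPM (21.6 to 46.3), 4.04-fold lower (2.58 to 6.46). Relb, a subunit of the alternative pathway, stood at 79.2 and 33.3 CPM. The inhibitor with the most RNA, Nfkbia, stood at 4187 and 3626 CPM, and Tnfaip3, a deubiquitinase that ends the signal, at 810 and 756 CPM. The list lay as low in Retnlg-high neutrophils, with a median of -0.59, where Tnfaip3 stood at 1107 and 493 CPM. Tnip1 stood there at 28.4 and 30.5 CPM, the placebo value being near the level of 3 counts, 21.3 CPM. Irg1, which makes itaconate in activated myeloid cells, stood at 2853 CPM (2711 to 3001) and 1193 CPM (1123 to 1266) in the members, 2.39-fold lower (2.21 to 2.59). By contrast, early-response genes of the AP-1 group had a median of 0.10 over 24 genes, with none 2-fold different. Among them Fos stood at 2659 and 5161 CPM, 1.94-fold higher (1.83 to 2.06), and in Retnlg-high neutrophils at 3080 and 2889 CPM. Such early genes are known to respond to tissue dissociation, and the part of dissociation was not tested.

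Stress and redox genes were lower in E2 members as well. Of 18 measured genes of the stress and unfolded protein response list, 15 had a log2 value below 0, 5 were at least 2-fold lower and none was 2-fold higher, and the median was -0.53. Slc7a11, the cystine importer that feeds glutathione synthesis, stood at 2154 CPM (2031 to 2283) and 1056 CPM (990 to 1126), 2.04-fold lower (1.87 to 2.22), and was found in 80.4% and 50.6% of members at 1000 UMIs, against 0.275% and 0% of T cells. Txnrd1, the thioredoxin reductase, stood at 415 and 183 CPM, 2.26-fold lower (1.84 to 2.78). Sqstm1, an autophagy receptor, stood at 486 and 178 CPM, 2.74-fold lower (2.24 to 3.35), while in Retnlg-high neutrophils it stood at 121 and 161 CPM. Gclc, which encodes the rate-limiting enzyme of glutathione synthesis, stood at 62.2 and 22.2 CPM. These 4 genes held in all 4 checks.

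Checkpoint and suppressive genes were mixed. Of 14 measured, 9 had a log2 value below 0, 3 were at least 2-fold lower and none was 2-fold higher. Cd274 (chr19:29367455-29388095), which encodes the T cell inhibitory ligand PD-L1, stood at 237 CPM (198 to 283) in placebo members and 38.9 CPM (27.1 to 54.1) in E2 members, 6.11-fold lower (4.17 to 9.16). At 1000 UMIs, 16.6% (11.2 to 23.2%) of placebo members and 5.53% (3.06 to 9.11%) of E2 members had a Cd274 UMI. The T cell shares were 6.80% and 4.33%, so the interval of the E2 members includes the share of T cells. Retnlg-high neutrophils held 149 CPM (92.3 to 228) and 88.5 CPM (71.4 to 108). Havcr2, which encodes TIM-3, stood at 124 and 13.3 CPM, 9.33-fold lower (5.001 to 19.0). The arginine-consuming enzymes Arg1 and Nos2 were nearly absent, with 2 and 3 UMIs and 0 and 5 UMIs. Arg2, the mitochondrial counterpart of Arg1, stood at 431 and 333 CPM. The suppressive cytokine Tgfb1 stood at 256 and 148 CPM. Wfdc17, a secreted inhibitor-like protein of myeloid cells, was nearly 2-fold higher, at 1713 and 3263 CPM, 1.90-fold (1.77 to 2.05), and in Retnlg-high neutrophils stood at 3470 and 6476 CPM.

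Of 16 genes listed for tumour neutrophils of the Siglecf-high kind, 13 had a log2 value below 0, 2 were at least 2-fold lower, Spp1 and Zeb2, and 1 was 2-fold higher. Of 9 lipid handling genes, 6 were below 0, 3 at least 2-fold lower and 1, Apoe, 2-fold higher. Spp1, the secreted matrix protein osteopontin, stood at 1089 and 190 CPM, 5.74-fold lower (4.83 to 6.84), with 1 cell holding 74.9% of the E2 UMIs. At 1000 UMIs it was found in 7.98% and 2.37% of members, against 0.367% and 0.433% of T cells. Olr1, a scavenger receptor for oxidised lipoprotein, stood at 281 CPM (238 to 330) and 70.0 CPM (53.8 to 89.5), 4.01-fold lower (2.97 to 5.48), and in Retnlg-high neutrophils at 149 and 40.0 CPM. The adhesion receptor Cd44 stood at 2101 and 988 CPM, 2.13-fold lower (1.94 to 2.32), and was found in 81.6% and 57.3% of members at 1000 UMIs, against 24.6% and 20.5% of T cells, which also make it. Zeb2, a transcription factor of myeloid maturation, stood at 501 and 197 CPM. Other lower genes came from lists that did not lean this way. The formyl peptide receptor Fpr2, which guides neutrophils to bacteria and damaged tissue, stood at 286 and 130 CPM, in a list of granule and vesicle genes with 7 above 0 and 4 below. Sema4d stood at 373 and 144 CPM and the integrin Itgax at 138 and 43.3 CPM. These 7 genes held in all 4 checks.

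**Figure D2:**
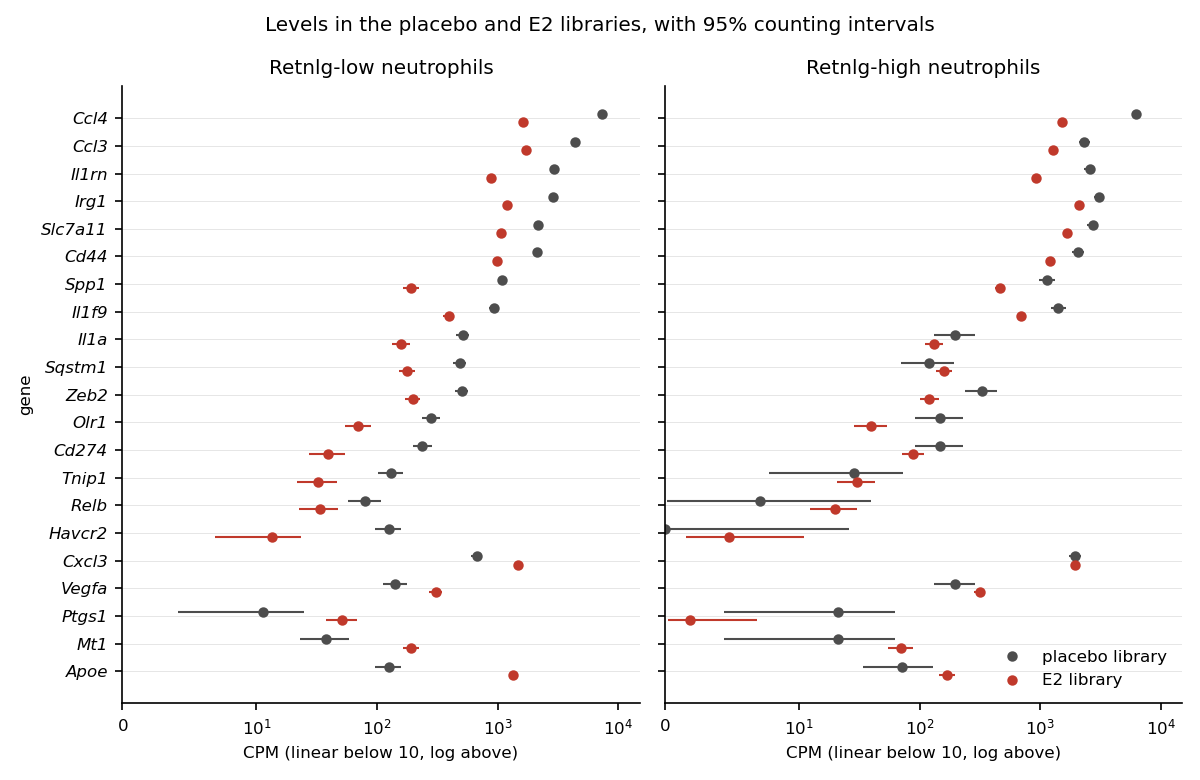
Level of 21 genes in CPM (horizontal axis, linear below 10 and logarithmic above) in Retnlg-low (left) and Retnlg-high (right) neutrophils; points are the placebo and E2 libraries and lines are exact 95% counting intervals. From Ccl4 at 7252 and 1618 CPM down to Havcr2 at 124 and 13.3 CPM the E2 point lies to the left in Retnlg-low cells, and from Cxcl3 to Apoe it lies to the right.

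Apoe, Mt1, Sparc and Ptgs1 were higher in E2 members and held in all 4 checks. Apoe, the lipid-carrying apolipoprotein made in bulk by macrophages, stood at 124 CPM (96.2 to 158) and 1343 CPM (1268 to 1421), 10.8-fold higher (8.42 to 14.05). Without the barcodes over 10000 UMIs it stood at 125 and 689 CPM. Macrophages and monocytes of the same libraries held 5271 and 9666 CPM and T cells 336 and 804 CPM, so Apoe was higher in the E2 library in each of these cell types. The share of macrophage RNA in the member sums was not tested. Mt1, a metal-binding metallothionein, stood at 37.7 and 192 CPM, 5.10-fold higher (3.20 to 8.55), and Sparc, a matrix protein of stromal cells and macrophages, at 13.2 and 77.7 CPM. Sparc stood at 99.9 and 198 CPM in macrophages and monocytes and at 1.85 and 69.7 CPM in T cells. Ptgs1, the constitutive cyclooxygenase, stood at 11.3 CPM (4.15 to 24.6) and 51.1 CPM (37.4 to 68.1), 4.52-fold higher (1.92 to 12.9). In Retnlg-high neutrophils Ptgs1 stood at 21.3 and 1.90 CPM, at or below the level of 3 counts there (21.3 and 2.86 CPM). Its inducible relative Ptgs2 was 1.02-fold higher (0.956 to 1.09).

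Ly6g, the surface protein used to stain mature neutrophils, was low in the members at 9.42 CPM (3.06 to 22.0) and 35.5 CPM (24.3 to 50.2). Its log2 value was 1.23, or 1.03 without the barcodes over 10000 UMIs, and held in all 4 checks. Several other genes did not reach 2-fold, or reached it only with the deep barcodes. Alox5ap and Alox5, which start leukotriene synthesis, stood at 761 and 1468 CPM and at 54.7 and 114 CPM. Vegfa, the angiogenic growth factor, stood at 141 and 305 CPM, 2.16-fold higher (1.67 to 2.83), with a log2 value of 0.90 without the barcodes over 10000 UMIs. Thbs1, which encodes the matrix protein thrombospondin 1, stood at 2039 and 3327 CPM in the members and at 1476 and 4616 CPM in Retnlg-high neutrophils. Tsc22d3, a glucocorticoid-induced regulator, stood at 128 and 289 CPM, with a log2 value of 1.11 that was 0.88 without those barcodes. Lcn2, the iron-scavenging granule protein, stood at 454 and 927 CPM, and its log2 value of 1.01 was 0.60 without them.

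Receptors for estrogen and progesterone were at or near 0 UMIs at this depth. Esr1, Esr2 and Pgr each had 0 UMIs in the members of both libraries, and Gper1, the membrane estrogen receptor, had 0 and 1 UMIs. The glucocorticoid receptor gene Nr3c1 stood at 132 and 111 CPM. Of its known targets, Tsc22d3, given above, and Per1, at 187 and 224 CPM, stood higher in E2 members, and Sgk1, at 134 and 73.3 CPM, lower.

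Type I interferon genes lay on both sides, while interferon-gamma genes were mostly lower. Of 20 type I interferon genes measured, 9 had a log2 value above 0 and 11 below, with a median of -0.23 that was -0.53 over the 15 genes still measured without the barcodes over 10000 UMIs, and of 0.61 in Retnlg-high neutrophils. Ifitm1 and Ifitm6, membrane proteins that restrict virus entry, stood at 2384 and 4722 CPM and at 102 and 245 CPM. Isg15, a ubiquitin-like protein, stood at 428 and 249 CPM. Of these 20 genes 2 were at least 2-fold lower and 1 higher, and only Ifi47, an immunity-related GTPase at 47.1 and 14.4 CPM, held in all 4 checks. Of 14 interferon-gamma genes 11 had a log2 value below 0, 2 were at least 2-fold lower, Cd274 and Cxcl10, and none was higher, with a median of -0.48 that was -0.37 without the barcodes over 10000 UMIs.

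Energy and survival genes gave few differences past 2-fold. The 28 nuclear genes of oxidative phosphorylation had a median of 0.17, with none 2-fold different, and the 26 of them still measured without the barcodes over 10000 UMIs had a median of 0.59. The 30 hypoxia and glycolysis genes had a median of 0.20, and Vegfa was the only gene of that list past 2-fold. Survival genes had a median of -0.22 over 20 genes, with none past 2-fold, and Mcl1, the main survival factor of neutrophils, stood at 3213 and 3169 CPM.

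Some of the largest ratios rested on 1 cell each and are not differences of the group. Camp and Ngp, proteins of the secondary granules of immature neutrophils, stood at 1.88 and 1278 CPM and at 1.88 and 1094 CPM, and in each library 1 cell held all of their UMIs. Ltf, lactoferrin, stood at 5.65 and 200 CPM with 97.2% of the E2 UMIs in 1 cell. Without the barcodes over 10000 UMIs Camp and Ngp stood at 2.45 CPM and at 0, Ltf stood at 7.35 and 6.91 CPM, and the median of the secondary granule list was 0.08 in place of 1.49. On the other side, Ccl22 at 221 and 1.11 CPM and Fscn1 at 128 and 3.33 CPM, markers of mature dendritic cells, came from a single placebo barcode, and 98.6% of the placebo UMIs of the cell cycle gene Ube2c did so too. Of 11 cell cycle genes measured all 11 were lower in E2 members, with a median of -1.06, but without the barcodes over 10000 UMIs 5 were still measured and their median was 0.67. Likewise 77.9% of the E2 UMIs of BC100530, 80.0% of those of Gmcl1 and 88.2% of those of Ccl5 were in 1 cell.

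**Figure D3:**
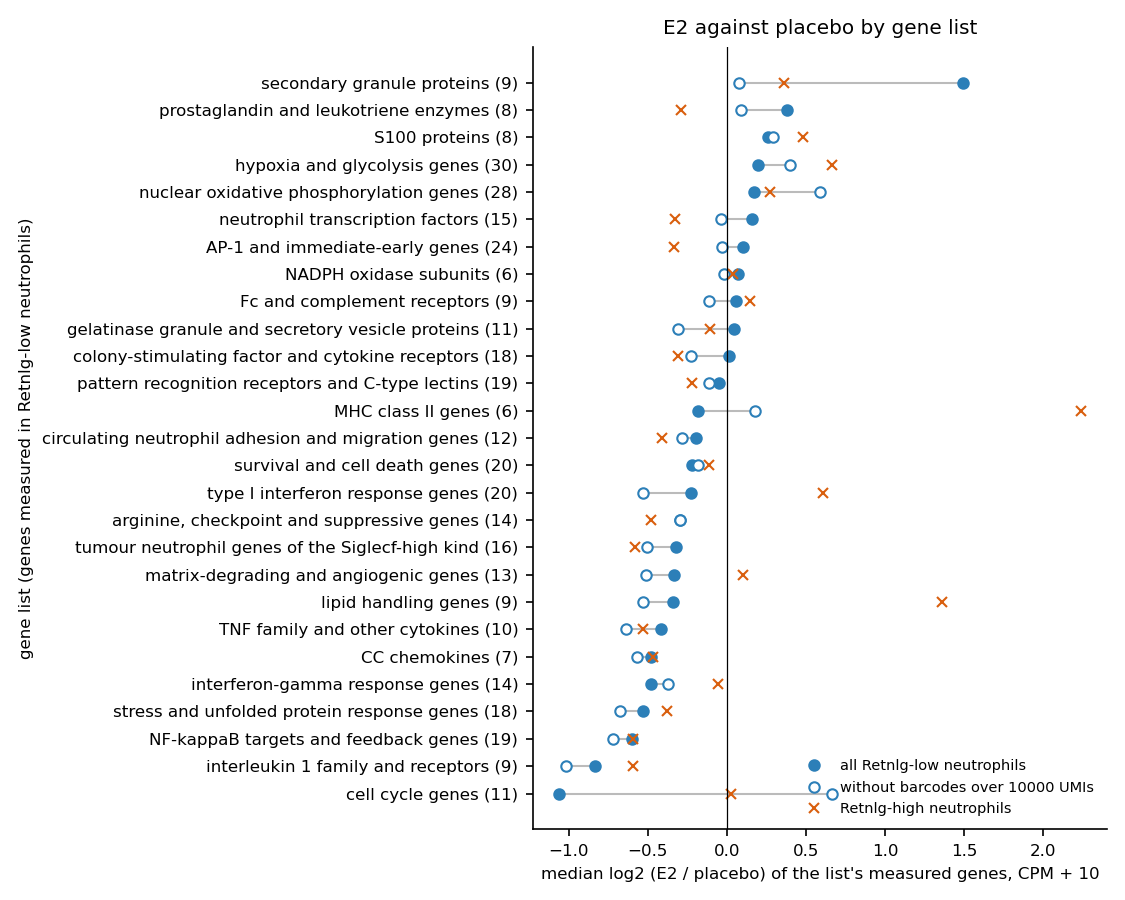
Median log2 (E2 / placebo) on the CPM + 10 scale of each gene list (horizontal axis), with the lists in rows. Filled circles are all Retnlg-low neutrophils, open circles the same without barcodes over 10000 UMIs, and crosses Retnlg-high neutrophils. The interleukin 1 list lies at -0.83 and the NF-kappaB list at -0.60, both further left without the deep barcodes, while the secondary granule list moves from 1.49 to 0.08.

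Sequence upstream of the measured genes was read, and windows of some named genes that held a motif are shown. RefSeq promoter windows on GRCm38.p6, from 250 bases before to 50 bases after the first listed start of each gene, were searched on both strands for the NF-kappaB consensus and for the AP-1 motif TGANTCA. The first set of windows shows the AP-1 motif upstream of 3 genes lower in E2 members, and the second the NF-kappaB consensus upstream of Tnip1, which was lower, Cxcl2, which was near equal, and Csf1, which is described further on. All 60-base windows lie upstream of the start, read 5′ to 3′ on the strand of the gene, and capitals mark the match on either strand.

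Il1rn, chr2:24336692-24336751, plus strand: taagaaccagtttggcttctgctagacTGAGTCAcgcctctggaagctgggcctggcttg

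Il1a, chr2:129309973-129310032, minus strand: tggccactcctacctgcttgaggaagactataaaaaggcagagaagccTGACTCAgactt

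Olr1, chr6:129507193-129507252, minus strand: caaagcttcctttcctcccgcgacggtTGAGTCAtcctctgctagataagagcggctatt

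Tnip1, chr11:54962963-54963022, minus strand: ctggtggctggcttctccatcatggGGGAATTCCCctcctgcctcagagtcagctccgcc

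Cxcl2, chr5:90903777-90903836, plus strand: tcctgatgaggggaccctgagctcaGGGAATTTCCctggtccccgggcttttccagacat

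Csf1, chr3:107760589-107760648, minus strand: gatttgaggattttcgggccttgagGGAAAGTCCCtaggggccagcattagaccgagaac

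The AP-1 match begins 141 bases before the start of Il1rn, 12 bases before that of Il1a and 60 bases before that of Olr1. Of the 96 genes lower in E2 members in all 4 checks, 79 had a window, and 11 of these windows held TGANTCA (13.9%), beside 179 of 3553 windows of the genes measured (5.04%) and 7.93% of all 27025 windows. The 11 genes were Cxcl10, Ezr, Glrx, Havcr2, Ikbke, Il1a, Il1rn, Itgax, Olr1, Osgin1 and Sema4d, named here because they hold the motif. None of the 48 windows of the genes higher in E2 members held it. The NF-kappaB consensus was in 10 of the 79 windows (12.7%), beside 376 of 3553 (10.6%). In the NF-kappaB target list, whose genes are known for it, it was in 10 of 17 windows. The full palindromic estrogen response element was in 18 of 27025 windows and in 0 of the 3553 windows of measured genes, so these windows could not show a difference for it. A match is a description of these letters and not a measured binding site.

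The members were then set beside Retnlg-high neutrophils of the same library. Since Retnlg and the S100 genes chose the classes, and genes follow each other across cells, these values describe how the classes differ and carry no test. Of 2569 genes with at least 30 UMIs in each library, 261 were at least 2-fold higher in Retnlg-low cells in both libraries (10.2%) and 23 at least 2-fold lower (0.895%), and 93 and 11 held in all 4 checks. In both libraries at once, 54.4% of these genes lay above 0 and 20.7% below. The median over all genes was 0.26 for placebo and 0.33 for E2, so the scale itself is shifted toward Retnlg-low cells. With each library's median set to 0 the counts were 109 higher and 58 lower, and with S100a8, S100a9 and Retnlg left out of the totals they were 177 and 42.

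Retnlg-low cells held more RNA of Csf1, Cxcr4, Clec4n and Tgfb1, each past 2-fold in both libraries and in all 4 checks. The 4 checks keep the shift of the scale, with medians of 0.26 and 0.33. The log2 values were 1.27 and 1.33 for Cxcr4 and 1.19 and 1.21 for Tgfb1. With the medians set to 0, these 2 genes were not past 2-fold in both libraries. Csf1 (chr3:107741048-107760469), the growth factor of macrophages, stood at 513 CPM (454 to 577) in Retnlg-low and 49.7 CPM (19.97 to 102) in Retnlg-high cells of the placebo library, a 10.3-fold difference (4.94 to 25.9). For E2 the levels were 313 CPM (278 to 352) and 67.6 CPM (52.8 to 85.2), a 4.64-fold difference (3.56 to 6.10). Macrophages and monocytes held 16.4 and 6.97 CPM of it. At 1000 UMIs a Csf1 UMI was found in 24.5% and 19.0% of Retnlg-low cells, in 4.17% and 6.35% of Retnlg-high cells, and in 0.275% and 0.541% of T cells. Cxcr4, a chemokine receptor that holds neutrophils in tissue and marrow, stood at 699 and 284 CPM for placebo and at 595 and 231 CPM for E2. The C-type lectin receptor Clec4n, also called dectin 2, stood at 482 and 192 CPM and at 483 and 72.3 CPM. Tgfb1, the suppressive cytokine, stood at 256 and 106 CPM and at 148 and 58.1 CPM, and Tnf, the inflammatory cytokine, at 384 and 163 CPM and at 318 and 79.9 CPM, a call that did not hold in all 4 checks. The lists these genes come from did not all lean the same way, beside 54.4% of all genes above 0 in both libraries and 20.7% below. Of 7 TNF family and other cytokine genes 4 were above 0 in both libraries and 2 below. Of 12 adhesion and migration genes, with Cxcr4 among them, 3 were above and 7 below, and of 12 arginine, checkpoint and suppressive genes, with Clec4n and Tgfb1, 2 were above and 6 below.

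Some transcription factors were also higher, though their lists differed. Jun, a subunit of AP-1, stood at 505 CPM in Retnlg-low and 106 CPM in Retnlg-high cells of the placebo library and at 675 and 192 CPM in the E2 library. Bhlhe40 stood at 236 and 106 CPM and at 204 and 65.7 CPM, and Runx1, a factor of myeloid differentiation, at 168 and 71.0 CPM and at 139 and 47.6 CPM. All 3 held in all 4 checks, but Bhlhe40 and Runx1 were not past 2-fold in both libraries with the medians set to 0. Of 22 AP-1 and immediate-early genes, 11 were above 0 in both libraries, beside 54.4% of all genes, and 1 was below, beside 20.7%. Jun alone was past 2-fold, beside 10.2% of all genes, so the list was not higher as a set. Of 13 neutrophil transcription factors, 3 were above and 5 below, with medians of -0.23 and 0.08, and Runx1 and Bhlhe40 were the 2 past 2-fold. Of 18 survival and cell death genes measured, 13 were above 0 in both libraries, beside 54.4% of all genes, and 3 were past 2-fold, beside 10.2% of all genes. These were Bax, a promoter of apoptosis, and Bcl2a1a and Bcl2a1d, which inhibit it. The Bcl2a1 genes are close copies of each other, so the split of reads between them is uncertain.

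Genes listed for tumour neutrophils that carry Siglecf, a lectin of eosinophils and of some tumour neutrophils, leaned the same way. Of 15 measured, 11 were above 0 in both libraries, beside 54.4% of all genes. The medians were 0.77 and 0.58 beside 0.26 and 0.33 for all genes. Cd63 was among those past 2-fold, but not in both libraries with the medians set to 0. Cd63, a membrane protein of granules, stood at 335 and 121 CPM for placebo and at 188 and 86.6 CPM for E2. Siglecf itself stood at 30.2 CPM (17.2 to 49.0) and 14.2 CPM (1.72 to 51.3) in the placebo library, which overlap, and at 46.7 CPM (33.6 to 63.1) and 6.66 CPM (2.68 to 13.7) in the E2 library. Macrophages and monocytes held 1.26 and 1.57 CPM of it. The 7 eosinophil markers, Siglecf included, summed to 32.0 and 49.98 CPM in the members, and 5 of them were at 0 for placebo and 4 for E2.

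Mitochondrial energy genes stood higher in Retnlg-low cells throughout. All 24 nuclear genes of oxidative phosphorylation that were measured were above 0 in both libraries, beside 54.4% of all genes. Of them 11 were past 2-fold, beside 10.2% of all genes, and the medians were 1.09 for placebo and 1.02 for E2. The median for placebo is 1.08 with the gene that had 0 UMIs in a class set to the level of 3 counts. Without the barcodes over 10000 UMIs 21 of the 24 were above 0 in both, and the medians were 0.46 and 0.94. None of the 24 held in all 4 checks. Ndufa4, a subunit of the respiratory chain, stood at 183 and 56.8 CPM and at 178 and 59.96 CPM. The 4 MHC class II genes measured were likewise higher, with Cd74, the invariant chain, at 1851 and 135 CPM and at 1648 and 615 CPM. This rested on few barcodes: 1 placebo cell held 63.4% and 1 E2 cell 39.3% of the Cd74 UMIs of the members, and H2-Aa, an antigen-presenting chain, stood at 577 CPM in placebo members and at 29.4 CPM without the barcodes over 10000 UMIs. Fn1, Crip1, S100a4 and Ms4a6c, genes of monocytes and other leukocytes, also stood lower in placebo members without those barcodes. In placebo members Fn1 stood at 162 CPM with and 7.35 CPM without them, Crip1 at 799 and 56.4 CPM, S100a4 at 371 and 110 CPM, and Ms4a6c at 88.6 and 7.35 CPM. Without them the log2 values of Fn1 and Ms4a6c for placebo, Retnlg-low over Retnlg-high, were 0.79 and 0.021. Crip1 and S100a4 stayed past 2-fold for placebo, and all of these genes did for E2. Without barcodes over 5000 UMIs Crip1 stood at 0.52 for placebo and 0.69 for E2, and S100a4 at 0.24 and 0.94.

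Mmp8, Lcn2, Wfdc21 and Stfa1 were among the 11 genes lower in Retnlg-low cells in all 4 checks. Mmp8 (chr9:7558456-7568485), neutrophil collagenase, stood at 64.1 CPM (44.4 to 89.5) in Retnlg-low and 511 CPM (400 to 643) in Retnlg-high cells of the placebo library, a 7.98-fold difference (5.23 to 12.4). For E2 the levels were 70.0 CPM (53.8 to 89.5) and 331 CPM (297 to 368), a 4.73-fold difference (3.61 to 6.29). Wfdc21, a secreted antimicrobial-type protein, stood at 737 and 2001 CPM and at 832 and 2892 CPM, and Lcn2 at 454 and 1299 CPM and at 927 and 2099 CPM. Stfa1, a cysteine protease inhibitor, stood at 28.3 and 263 CPM and at 105 and 388 CPM, in few cells. Padi4, which citrullinates histones when neutrophils release their chromatin, stood at 35.8 and 177 CPM and at 53.3 and 107 CPM, and was not past 2-fold in both libraries on the scale with 10 CPM added. Of 10 gelatinase granule and secretory vesicle genes measured, 8 were below 0 in both libraries, beside 20.7% of all genes, and none above. The medians were -0.44 and -0.66. Without the barcodes over 10000 UMIs 1 was above 0 in both, and the medians were -0.10 and -0.54. The secondary granule list, which holds Lcn2, lay on both sides. Of its 5 measured genes 3 were above 0 in both libraries and 2 below, with 2 past 2-fold higher and 1 past 2-fold lower. Its medians were 0.53 and 0.48, or 0.34 and -0.07 without those barcodes. Ccl6 stood at 701 and 1434 CPM and at 501 and 1360 CPM. Type I interferon genes lay lower too, with 10 of 14 genes below 0 in both libraries, beside 20.7% of all genes. Their medians were -0.42 and -0.92, or -0.13 and -0.94 without those barcodes.

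**Figure D4:**
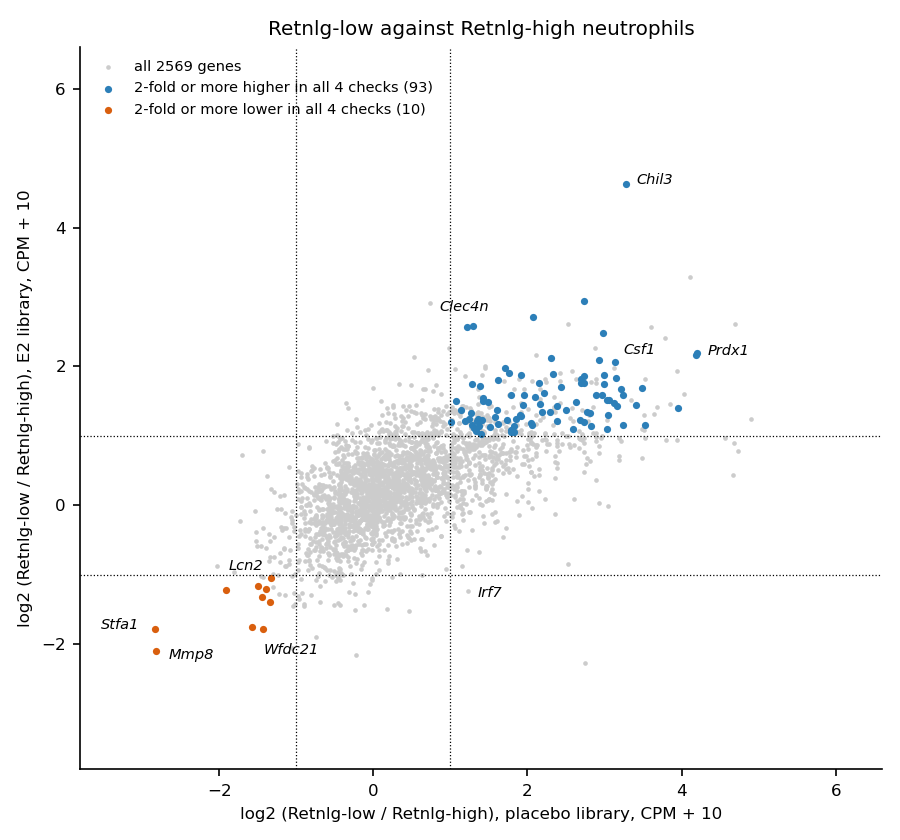
Each grey point is 1 of 2569 genes, with log2 (Retnlg-low / Retnlg-high) on the CPM + 10 scale in the placebo library (horizontal axis) and in the E2 library (vertical axis); dotted lines mark 2-fold. Blue points are the 93 genes at least 2-fold higher in Retnlg-low cells in all 4 checks, and orange points the 10 lower ones other than Retnlg, with Csf1 to the upper right and Mmp8 to the lower left.

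Cxcl2 and Il1b differed little between the classes, while Cxcl1 was higher in Retnlg-low cells. Cxcl2 was 1.12-fold lower in Retnlg-low cells of the placebo library (1.09 to 1.16) and 1.09-fold lower in those of the E2 library (1.07 to 1.11), and Il1b was 1.14-fold lower and 1.19-fold higher. Without the barcodes over 10000 UMIs both genes were slightly higher in Retnlg-low cells, with log2 values of 0.19 and 0.09 for Cxcl2 and of 0.16 and 0.43 for Il1b. Cxcl1, a further chemokine that acts through CXCR2, stood at 64.1 CPM in Retnlg-low placebo cells against 0 UMIs in Retnlg-high ones, where 3 UMIs would be 21.3 CPM. For E2 it stood at 118 and 32.4 CPM, 3.64-fold higher (2.45 to 5.52), and it held in all 4 checks. T cells held 0.924 and 3.60 CPM of it. Cxcl3, the other measured gene of that list, was lower in Retnlg-low cells, at 671 and 1952 CPM for placebo and at 1475 and 1930 CPM for E2. Ptgs2 stood at 2610 and 2228 CPM for placebo and at 2667 and 1308 CPM for E2, 2.04-fold higher (1.91 to 2.18) in the latter. The NF-kappaB inhibitor Nfkbia stood at 4187 and 4166 CPM and at 3626 and 2202 CPM. Whether the class difference of these genes differed between the libraries was not tested.

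Levels were also followed over 4 steps of Retnlg share, namely 0, above 0 to under 0.2%, 0.2% to under 1%, and 1% and above. The steps held 92, 76, 38 and 11 placebo cells and 145, 111, 136 and 117 E2 cells. Of the 2569 genes, 56 had a Spearman rank correlation of 1 with the steps in both libraries and 276 one of -1. With so many ties over 4 steps, no few genes could be named as the most alike. Csf1 was lower in members with Retnlg UMIs than in those without in both libraries, and Mmp8 was higher for E2 only. Csf1 stood at 635, 389, 56.9 and 28.2 CPM over the steps of the placebo library and at 456, 171, 61.8 and 73.9 CPM over those of the E2 library. Mmp8 stood at 71.4, 56.7, 370 and 930 CPM over the former and at 22.2, 118, 200.05 and 475 CPM over the latter. These steps share their libraries and their depth gradient, with median depths of 2307.5 UMIs at 0 and 3440 UMIs at 1% and above in the placebo library.

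**Figure D5:**
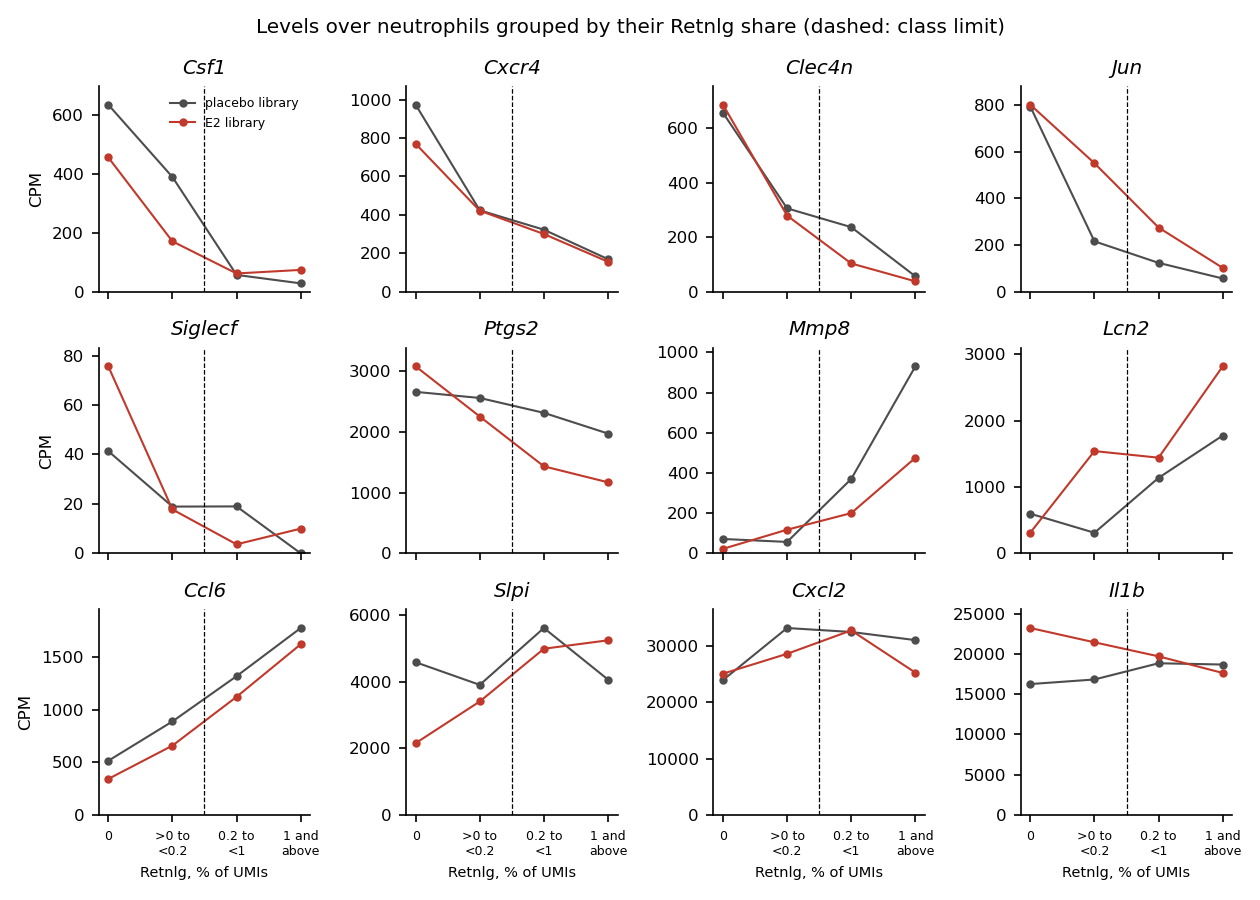
Level in CPM (vertical axes, from 0) of 12 genes over neutrophils grouped by the Retnlg share of their UMIs (horizontal axes), for the placebo and E2 libraries; the dashed line is the class limit at 0.2%. Csf1, Cxcr4, Clec4n and Jun lie highest at the left and Mmp8, Lcn2 and Ccl6 at the right, while Cxcl2 lies between 23898 and 33121 CPM in every group.

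The members also varied among themselves. Those without any Retnlg UMI were compared with those that had at least 1. For S100a9 the levels were 28752 CPM without and 39537 CPM with Retnlg among placebo members and 29178 and 58224 CPM among E2 members. Siglecf lay the other way, at 41.3 and 18.9 CPM for placebo and at 75.6 and 17.7 CPM for E2. Ptgs2 stood at 2660 and 2559 CPM and at 3080 and 2254 CPM. Cd274 did not follow this split, with 199 and 276 CPM for placebo and 40.0 and 37.7 CPM for E2. A cell without a Retnlg UMI may still express the gene.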

How the data were processed

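Counts are UMIs per gene and barcode made by the authors with Cell Ranger 3.1.0 on mm10, per the submitters' processing notes, and deposited as 1 matrix per library. From them, barcodes with at least 200 genes were classed by the rule given with the results. T cells had at least 3 Cd3 UMIs. Macrophages and monocytes had at least 3 UMIs over a set of macrophage genes with Csf1r and Ms4a7 in it, and at most 1 Cd3 UMI. Both classes had under 20 S100a8 and S100a9 UMIs. UMIs were summed per class and library and scaled to CPM. Genes with at least 30 UMIs over both libraries, or in each library for Retnlg-low against Retnlg-high, were measured, 10 CPM was added to each level for log2 ratios, and 2-fold was the call. Intervals are exact (Poisson, Clopper-Pearson or conditional binomial) at 95% and cover counting error only, the limit for a count of 0 is 3 counts, and shares of cells were taken after thinning to 1000 UMIs. The floor was 5.65 CPM for placebo members and 3.33 CPM for E2 members. No test was run, because each group is 1 library.

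Genes were named by rule: the 12 with the highest and the 12 with the lowest log2 ratio of each comparison among those of 50 CPM or more, the 15 of highest CPM, and in each list the 5 with the largest ratios and the 3 of highest CPM. Some genes that these rules take are not reported here. Genes at or near 0 (Elane, Mpo, Ctsg, Esr1, Esr2, Pgr, Gper1, Arg1 and Nos2), Arg2 and Tnfaip3 were named after their values were seen. Members and lists were chosen with earlier results of these data known, and leaving out barcodes over 10000 or over 5000 UMIs was an alternative chosen after seeing the data. Gene coordinates are those of GENCODE M21 on GRCm38, which matched 47224 of 47730 features, and promoters are those of RefSeq. Doublets were scored with Scrublet in scanpy 1.11.5 and kept. Calls were checked on counts simulated without variation between cells, so this check does not cover genes whose UMIs lie in few cells. Python 3.11.15, numpy 2.4.6, scipy 1.17.1, pandas 2.3.3 and matplotlib 3.10.9 were used.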

Additional observations from a re-analysis of the deposited data

Results flagged for a closer look

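Irf7, a transcription factor induced by interferon, lay on opposite sides in the 2 libraries. Its log2 ratio of Retnlg-low over Retnlg-high neutrophils was 1.22 in the placebo library, from 96.1 and 35.5 CPM, and -1.23 in the E2 library, from 46.7 and 123 CPM. Without the barcodes over 10000 UMIs the values were 1.15 and -1.18. With 1 library per group the difference was not tested.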

How the results depend on the processing

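No paired analysis was possible because each group is 1 library. Shares of barcodes were 5.59% for placebo and 5.50% for E2 at a Retnlg limit of 0.5%, 3.85% for E2 at 0.1%, 3.04% and 3.16% with at least 100 S100 UMIs, and 4.01% and 3.78% with barcodes thinned before the rule. Shares of selected neutrophils in the same order of settings were 89.9% and 62.3%, 66.8% and 43.6%, 70.7% and 41.9%, and 70.7% and 45.5%. The rule on thinned barcodes, here and below, left out barcodes under 1000 UMIs and took a lower minimum for Csf3r plus Cxcr2 plus Il1r2. Genes 2-fold higher in E2 members numbered 255 with the rule on thinned barcodes, 291 without barcodes with markers of other cell types, 209 without barcodes over 10000 UMIs, 221 without those over 5000, 223 with 1 CPM added, 191 and 33 at minimums of 10 and 100 UMIs, 293 with the mean of the cells' CPM and 553 with cells thinned. Genes 2-fold lower numbered 246 and 65 at those minimums and 283 with cells thinned.

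Genes higher in Retnlg-low than in Retnlg-high cells numbered 150 with 100 S100 UMIs, 73 with the rule on thinned barcodes, 88 without other markers, 101 and 79 without barcodes over 10000 and over 5000 UMIs, 485 and 87 at the minimums of 10 and 100 UMIs, 109 with the median at 0 and 169 with the mean of the cells' CPM. The lower ones numbered 11 with 100 S100 UMIs and 11 with the rule on thinned barcodes, 13 without other markers, 15 without barcodes over 5000 UMIs, 13 at 100 UMIs, 58 with the median at 0 and 42 without the S100 genes and Retnlg in the totals.

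The log2 values that turned were all of genes held by few barcodes. With the rule on thinned barcodes Camp, Ngp and Ltf stood at -0.17, -0.36 and -0.52. Without high doublet scores Camp and Ngp stood at -0.29, Ccl22 at 0.19 and Fscn1 at 0.36. Without barcodes over 10000 UMIs Camp and Ngp stood at -0.32, Ltf at -0.037, Ccl22 at 0.19 and Fscn1 at 0.50. Without those over 5000 UMIs Camp and Ngp stood at -0.34, Ltf at -0.017, Ccl22 at 0.21, Fscn1 at 0.56 and Hist1h2ap at 0.051. Without other markers Ube2c stood at 0.52. Ms4a6c, Retnlg-low over Retnlg-high, stood at -0.77 for placebo both without other markers and without barcodes over 5000 UMIs, and at -0.25 for E2 in the latter. Of the log2 values of the single genes with the most extreme ratios recomputed, 1059 kept their direction and size class, 92 moved and 22 turned. The cause was not tested. Placebo members gave fewer UMIs than E2 members and Retnlg-high placebo cells fewer still, with a floor of 21.3 CPM, so low genes are least certain there.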
